A study of Rattus norvegicus with 6 samples.

Results

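The proteasome genes were those whose symbol in the platform annotation begins with Psm, followed by a letter from a to g and a digit. This rule gave 44 probes of 22517 on the array, for 43 of the 13336 gene symbols that name probes, and it did not use any measured value. Expression was measured with Illumina bead arrays in granulation tissue, which forms as a wound heals, from hydroxyapatite-coated cellulose implants. The implants were subcutaneous, in Sprague-Dawley rats that were all 10 weeks old, and every one had the same coating. Implants of 3 rats were taken at day 1 (rats 1, 2 and 3) and implants of 3 other rats at day 3 (rats 6, 4 and 7). Each array holds the bulk RNA of 1 rat's implant tissue with all the cells that had entered it. The deposited values had been normalized so that every array had the same median of 104.045 intensity units (6.47 on the log2 scale after background correction). The precision is limited by having 6 arrays. Of the genes of the classes used here, Psmd14, Psmd10, Psme3, Psmf1, Psmg3 and Psmg4 had no named probe and were not analysed here.

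The proteasome is the protease complex that degrades proteins tagged with ubiquitin. Its barrel-shaped core has outer rings of alpha subunits, which form the gate, and inner rings of beta subunits, which hold the catalytic sites. A regulatory particle binds ubiquitin chains, unfolds the substrate with a ring of ATPases and feeds it into the core. In leukocytes and in cells exposed to interferon gamma, the inducible subunits Psmb8, Psmb9 and Psmb10 take the places of Psmb5, Psmb6 and Psmb7, and the resulting immunoproteasome makes peptides suited to MHC class I. The Psme activators are alternative caps of the core, and Psme1 and Psme2 are also induced by interferon gamma. Nfe2l1 and Nfe2l2 are transcription factors that act on core and regulatory particle genes through antioxidant response elements.

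Promoters are shown for the inducible genes Psmb8, Psmb10 and Psme2 and for the constitutive catalytic genes Psmb5 and Psmb6, which were picked because they hold a match to a motif of these known modes of control. The other inducible genes, Psmb9 and Psme1, held no match to the interferon-stimulated response element or the gamma-activated site in this window. The sequences are from RefSeq on the rat assembly GRCr8. Each runs 5′ to 3′ on the gene's strand, from 250 bases before the annotated start to 50 bases after it. Capitals mark an interferon-stimulated response element, searched as GAAA, any 2 bases and GAAA on both strands, in the first 3 sequences. In the last 2 they mark an antioxidant response element, searched as TGACNNNGC on both strands. No marked match overlapped a match of another motif searched.
Psmb8, chr20:4656982-4657281, minus strand: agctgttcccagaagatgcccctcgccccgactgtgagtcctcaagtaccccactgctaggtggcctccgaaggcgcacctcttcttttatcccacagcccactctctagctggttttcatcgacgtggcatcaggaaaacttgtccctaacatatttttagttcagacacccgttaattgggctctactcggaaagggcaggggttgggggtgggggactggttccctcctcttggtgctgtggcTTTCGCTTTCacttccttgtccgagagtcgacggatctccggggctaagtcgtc
Psmb10, chr19:50743243-50743542, minus strand: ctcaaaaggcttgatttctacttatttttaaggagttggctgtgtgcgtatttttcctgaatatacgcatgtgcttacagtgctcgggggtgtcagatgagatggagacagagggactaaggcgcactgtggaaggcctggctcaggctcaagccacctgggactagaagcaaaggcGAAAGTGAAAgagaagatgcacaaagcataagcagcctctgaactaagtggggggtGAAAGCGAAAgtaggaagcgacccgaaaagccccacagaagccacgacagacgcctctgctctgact
Psme2, chr15:33052702-33053001, minus strand: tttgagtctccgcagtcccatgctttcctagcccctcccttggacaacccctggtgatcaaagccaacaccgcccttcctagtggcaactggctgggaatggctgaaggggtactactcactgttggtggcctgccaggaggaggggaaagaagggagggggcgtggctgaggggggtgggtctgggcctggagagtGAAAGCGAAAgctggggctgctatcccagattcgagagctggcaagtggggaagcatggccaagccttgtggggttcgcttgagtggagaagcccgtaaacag
Psmb5, chr15:32047330-32047629, minus strand: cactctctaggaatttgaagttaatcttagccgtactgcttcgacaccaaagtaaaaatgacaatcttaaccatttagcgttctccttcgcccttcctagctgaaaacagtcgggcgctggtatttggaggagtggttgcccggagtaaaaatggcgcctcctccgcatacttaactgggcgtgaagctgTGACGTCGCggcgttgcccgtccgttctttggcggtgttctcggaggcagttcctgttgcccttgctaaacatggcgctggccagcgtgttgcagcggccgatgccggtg
Psmb6, chr10:55737638-55737937, plus strand: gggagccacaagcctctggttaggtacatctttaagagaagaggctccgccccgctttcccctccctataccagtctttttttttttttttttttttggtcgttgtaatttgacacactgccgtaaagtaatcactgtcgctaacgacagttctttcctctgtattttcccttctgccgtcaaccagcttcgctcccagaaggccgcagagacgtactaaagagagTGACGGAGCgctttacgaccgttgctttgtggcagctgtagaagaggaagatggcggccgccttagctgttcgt

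Of the 43 genes, 39 were matched to a promoter in the table. The interferon-stimulated response element was found in 6 of these 39 (15.4%), against 3.92% of all 33469 promoters of the table. The holders were Psmb8, Psmb10 (with 2 matches), Psme2, Psma4, Psmb3 and Psmd7. An antioxidant response element was found in 8 of 39 (20.5%), against 12.1% of all promoters, namely in Psmb5, Psmb6, Psmb2, Psma3, Psmd1, Psmd3, Psmd9 and Psme4. The gamma-activated site TTCNNNGAA was found in 10.3% of member promoters and 8.87% of all, the CCAAT box in 46.2% and 37.5%, and a loose NF-kappaB motif (GGG, any 5 bases and CC) in 64.1% and 47.3%. Such matches describe the letters of these windows and do not show that a factor was bound.

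Proteasome genes differed little between day 1 and day 3. Of 43 genes, 41 passed the filter on dim signal, and 1 of them, the assembly chaperone gene Psmg1, rose and 1, the regulatory particle gene Psmd11, fell. The remaining 39 did not pass the test (limma with Benjamini-Hochberg adjustment over all 11591 tested probes, threshold 0.05). In the same fit, 31.9% of all tested probes were called, 16.7% as higher and 15.2% as lower at day 3. The values of the 3 day 1 arrays and the 3 day 3 arrays did not overlap for 7 of the 41 genes, against 49.4% of all tested probes. At an unadjusted p under 0.05 there were 8 of 41 genes, 7 of them higher at day 3, against 43.5% of all tested probes.

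The changes were smaller than those of all tested probes, while their standard errors were alike. The median absolute log2 change was 0.20 for the 41 genes and 0.33 for all tested probes, while the median standard error of a change was 0.15 for both. A log2 change smaller than 0.5 in either direction was measured for 36 of 41 genes (87.8%) and for 64.0% of all tested probes. Changes of the 41 genes ran from -0.52 to 0.77 on the log2 scale, with a median of 0.06, against a median of -0.05 for all tested probes. The 95% confidence interval of the change lay within a 2-fold change in both directions for 37 of 41 genes, and within 1.5-fold for 23. Psma1, Psmb5, Psmb6 and Psmg1 had the intervals that reached beyond 2-fold. These intervals are not adjusted for the number of genes.

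**Figure D1:**
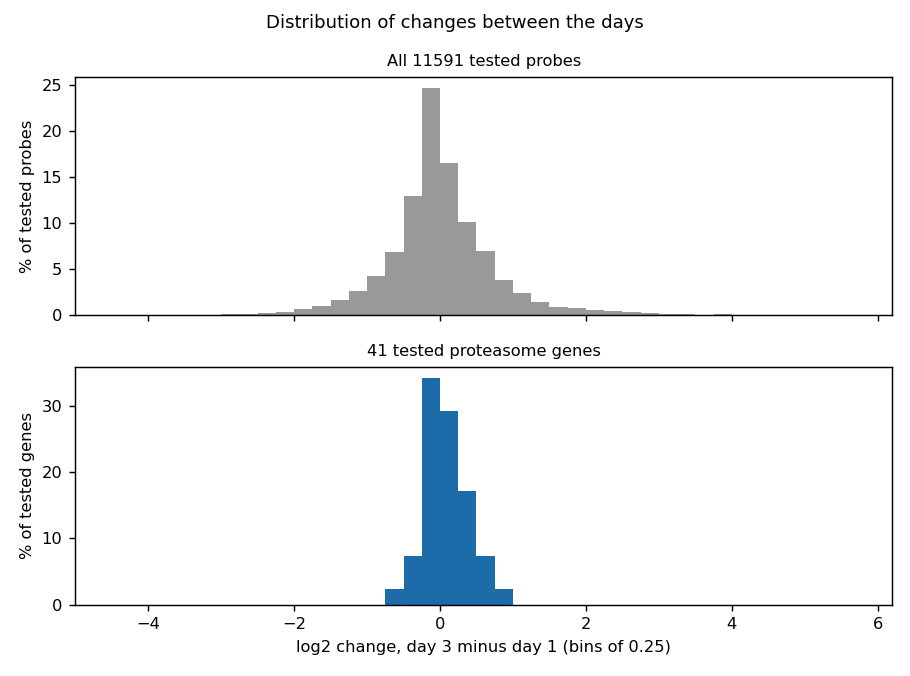
Share of features (vertical axis, in percent) by log2 change from day 1 to day 3 (horizontal axis, bins of 0.25) for all 11591 tested probes (upper panel) and for the 41 tested proteasome genes (lower panel). The proteasome genes lie between -0.52 and 0.77, within the central part of the wider distribution of all probes.

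Signals below are normalized log2 values, given for day 1 rats 1, 2 and 3 and then for day 3 rats 6, 4 and 7. A change is day 3 minus day 1, and the signals of different probes are not compared with each other. Psmg1 encodes a chaperone that, with Psmg2, helps the alpha ring to assemble. Its log2 signal was 11.02, 10.90 and 11.70 at day 1 and 12.22, 11.90 and 11.80 at day 3. All day 3 arrays were above all day 1 arrays, and day 1 rat 3 was close to the day 3 range. The gene rose 1.70-fold, with a log2 change of 0.77 ± 0.23 (SE, limma adjusted p = 0.0432). Without day 1 rat 1 or day 1 rat 2 the adjusted p was 0.13 and 0.109, and without day 3 rats 6, 4 and 7 it was 0.142, 0.0942 and 0.0848. The call held without day 1 rat 3 and was lost without any other rat, and with no filter on dim probes the adjusted p was 0.0685. Its partner Psmg2 had a change of -0.03 ± 0.13 (adjusted p = 0.863), with a day 1 mean of 8.68 ± 0.18 and a day 3 mean of 8.65 ± 0.07 (SD, n = 3, limma).

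Psmd11 encodes a lid subunit that clamps the regulatory particle to the core. Its log2 signal was 13.44, 13.47 and 13.28 at day 1 and 12.89, 13.09 and 12.94 at day 3. The days did not overlap, and the spread within a day was small. The gene was 1.34-fold lower at day 3, with a log2 change of -0.42 ± 0.12 (SE, limma adjusted p = 0.0328). The call held without day 1 rat 3. Leaving out any other rat gave adjusted p values of 0.0951 and 0.0708 without day 1 rats 1 and 2, and of 0.116, 0.067 and 0.117 without day 3 rats 6, 4 and 7. With an offset of 16 in the background step it was 0.0582, and with an intensity trend and robust fitting 0.0509.

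Among the constitutive core genes, 14 of 15 were tested, none was called in limma and 2, Psmb3 and Psmb5, had an unadjusted p under 0.05. Of all tested probes, 31.9% were called and 43.5% had an unadjusted p under 0.05. The median change of the core genes was 0.12. The alpha ring held 7 tested genes, with changes from -0.52 to 0.28 and a median of -0.05. Psma1 had the lowest value, a change of -0.52 ± 0.24 (adjusted p = 0.144, limma), from 7.60 ± 0.28 to 7.07 ± 0.43 (SD, n = 3). Its signal was 7.87, 7.31 and 7.61 at day 1 and 6.70, 6.99 and 7.54 at day 3, so the days overlapped. Psma7 had the highest, 0.28 ± 0.16 (adjusted p = 0.233, limma). Psma2, Psma3, Psma5 and Psma6 had changes of -0.07, -0.05, 0.03 and -0.08, and Psma4 had 0.23. The signal of Psma3 was close to the array median of 6.47, with a mean of 6.78 at day 1 and 6.73 at day 3. Psma8, whose product replaces an alpha subunit in the testis, was below the array median on all 6 arrays and was not tested.

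The 7 constitutive beta ring genes were all tested and had a median change of 0.23, from -0.08 to 0.58. Psmb5 encodes the subunit with chymotrypsin-like activity. Its log2 signal was 12.18, 12.06 and 12.75 at day 1 and 13.07, 12.82 and 12.85 at day 3. Every day 3 array was above every day 1 array, with day 1 rat 3 just below the day 3 range, and the log2 change was 0.58 ± 0.20 (limma adjusted p = 0.0601). Psmb3, a structural beta subunit, had 12.64, 12.59 and 13.24 at day 1 and 13.53, 13.32 and 13.17 at day 3. Day 1 rat 3 lay within the day 3 range, and the change was 0.52 ± 0.20 (adjusted p = 0.0923, limma). Psmb6, with caspase-like activity, had a change of 0.39 ± 0.28 (adjusted p = 0.313, limma) and Psmb7, with trypsin-like activity, one of -0.05 ± 0.16 (adjusted p = 0.839). The structural subunits Psmb1, Psmb2 and Psmb4 had changes of 0.23, 0.20 and -0.08.

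**Figure D2:**
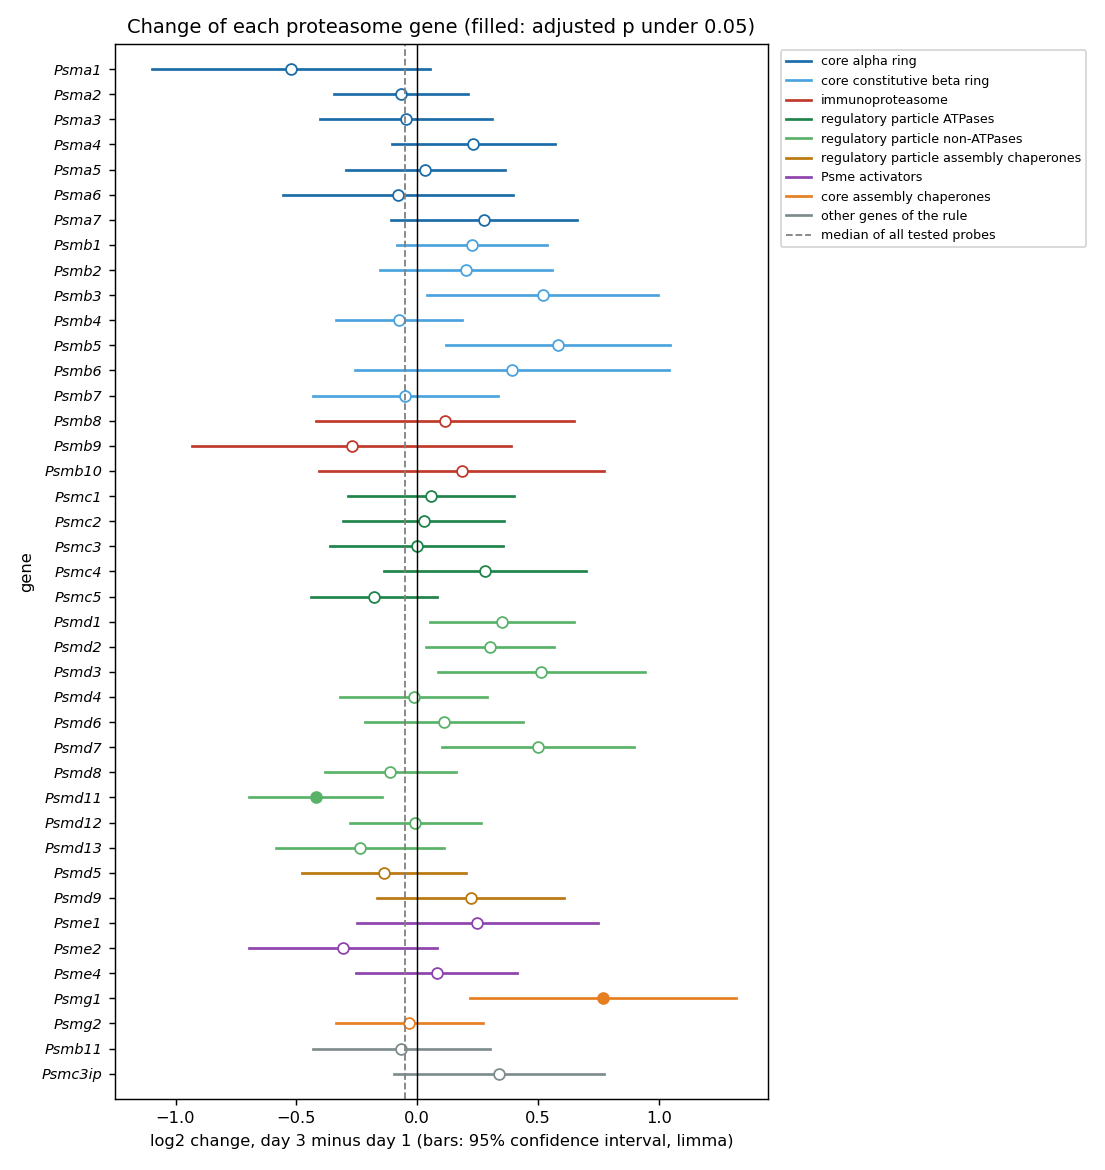
Log2 change from day 1 to day 3 (horizontal axis) with its 95% limma confidence interval for each of the 41 tested proteasome genes (vertical axis), coloured by class. Filled points mark the 2 genes with an adjusted p under 0.05, Psmd11 at -0.42 and Psmg1 at 0.77, and the dashed line at -0.05 marks the median of all tested probes.

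Of 16 regulatory particle genes on the array, 15 were tested, with a median change of 0.03. None rose and 1, Psmd11, fell, and 5 had an unadjusted p under 0.05. Of all tested probes, 31.9% were called and 43.5% had an unadjusted p under 0.05. None of the 5 tested ATPase genes was called in limma or had an unadjusted p under 0.05. Psmc4 had the highest change among them, 0.28 ± 0.18 (adjusted p = 0.263, limma), and Psmc5 the lowest, -0.18 ± 0.11 (adjusted p = 0.252). Psmc1, Psmc2 and Psmc3 had changes of 0.06, 0.03 and -0.0025. Psmc6, also an ATPase subunit, was below the array median on all 6 arrays and was not tested, so no change is given for it.

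The 10 non-ATPase genes, all tested, had changes on both sides of 0, with a median change of 0.05 and a range from -0.42 to 0.51. Psmd3, a lid subunit, had 12.17, 12.28 and 12.73 at day 1 and 13.09, 12.91 and 12.73 at day 3, a change of 0.51 ± 0.18 (limma adjusted p = 0.0698). Psmd7, the partner of the deubiquitinating subunit in the lid, had 11.47, 11.16 and 11.75 at day 1 and 12.09, 11.87 and 11.92 at day 3, a change of 0.50 ± 0.17 (limma adjusted p = 0.061). The days overlapped slightly for Psmd3 and did not overlap for Psmd7, against no overlap for 49.4% of all tested probes. Psmd1 and Psmd2, the large scaffold subunits of the base, had changes of 0.35 ± 0.13 (adjusted p = 0.0722, limma) and 0.30 ± 0.11 (adjusted p = 0.0826), again with no overlap of the days. Psmd13 had a change of -0.24, and Psmd8 one of -0.11 at a signal close to the array median of 6.47. The ubiquitin receptor Psmd4 had -0.01, and the lid subunits Psmd6 and Psmd12 had 0.11 and -0.01. Of the chaperones that assemble the base, Psmd5 had a change of -0.14 ± 0.14 (adjusted p = 0.499, limma) and Psmd9 one of 0.22 ± 0.16 (adjusted p = 0.338).

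None of the 3 immunoproteasome genes was called in limma, and none had an unadjusted p under 0.05. Of all tested probes, 31.9% were called and 43.5% had an unadjusted p under 0.05, but 3 genes are too few to set against these shares. The median change of the 3 genes was 0.12. Psmb8 had a log2 signal of 12.82, 12.21 and 13.06 at day 1 and 12.94, 12.62 and 12.89 at day 3, a change of 0.12 ± 0.23 (limma adjusted p = 0.724). Psmb10 had 12.50, 11.93 and 12.94 at day 1 and 12.80, 12.49 and 12.63 at day 3, a change of 0.18 ± 0.25 (limma adjusted p = 0.608). For both genes the day 3 arrays lay inside the day 1 range, between low values in day 1 rat 2 and high values in day 1 rat 3. The other probe of Psmb10 had a change of -0.02 ± 0.23 (limma adjusted p = 0.954). Psmb9 had 8.60, 7.72 and 7.56 at day 1 and 7.58, 7.56 and 7.93 at day 3, a change of -0.27 ± 0.28 (limma adjusted p = 0.492). Day 1 rat 1 stood above the other arrays for this gene, and the rest overlapped. Without that rat the change of Psmb9 was 0.05 (limma adjusted p = 0.843), and with array weights it was -0.80 (limma adjusted p = 0.0123), so its sign and its call depend on the weight given to single arrays. The 95% intervals of Psmb8, Psmb9 and Psmb10 lay within 2-fold but not within 1.5-fold.

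Leukocytes are rich in immunoproteasome, and leukocyte genes did differ between the days. As a base for the marker counts, 31.9% of all tested probes were called, 16.7% as higher and 15.2% as lower at day 3. Of 9 tested leukocyte markers 7 fell and none rose (median change -0.85), with a summed log2 signal of 16.50 to 16.73 at day 1 and 15.67 to 15.95 at day 3. Of 7 tested neutrophil markers 6 fell (median change -2.39; 14.69 to 15.03 at day 1 and 12.38 to 12.93 at day 3). Lymphocyte and NK cell markers, 8 of them tested, held 1 call in each direction (median change -0.21), and their summed signal was 12.30, 11.19 and 12.20 at day 1 and 11.53, 11.55 and 11.61 at day 3, lowest in day 1 rat 2. Of 6 macrophage markers 4 rose (median change 1.94; 11.23 to 13.16 at day 1 and 13.37 to 14.56 at day 3). All 7 tested fibroblast markers rose (median change 2.47; 14.03 to 15.70 at day 1 and 16.88 to 17.04 at day 3). Dendritic cell and class II markers went both ways, with 3 of 6 tested higher (RT1-Da, RT1-Ba and RT1-Db1, all class II genes) and 1 lower (Cd86, a costimulatory receptor ligand), a median change of 0.68 and summed signals of 13.90 to 14.64 at day 1 and 14.95 to 15.36 at day 3. All 3 tested endothelial markers rose (median change 1.88; 9.63 to 11.25 at day 1 and 12.36 to 12.60 at day 3). Markers of several cell types thus passed the test in either direction. None of the 3 immunoproteasome genes did, but 3 genes are too few to set against the share of all tested probes called. In bulk tissue, fewer cells of a type and less RNA per cell cannot be told apart, and the part of cell makeup in the proteasome values was not tested.

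Among the activators, 3 of 3 genes on the array were tested, none was called in limma and none had an unadjusted p under 0.05 (median change 0.08). Of all tested probes, 31.9% were called and 43.5% had an unadjusted p under 0.05, but 3 genes are too few to set against these shares. Psme1 had 13.55, 12.81 and 13.46 at day 1 and 13.51, 13.39 and 13.67 at day 3, a change of 0.25 ± 0.21 (limma adjusted p = 0.404). Psme2, which forms a ring together with Psme1, had 11.24, 11.01 and 11.59 at day 1 and 11.07, 10.91 and 10.94 at day 3, a change of -0.31 ± 0.16 (limma adjusted p = 0.195). The days overlapped for both. Psme4, a nuclear activator, had a change of 0.08 ± 0.14 (limma adjusted p = 0.691). Of the other genes with matching symbols, Psmb11, the thymus-specific catalytic subunit, had a change of -0.07 and Psmc3ip, a meiotic recombination factor named for binding Psmc3, one of 0.34. Both were above the array median on only 3 of 6 arrays, the least that the filter admits.

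Each inducible subunit was also set against the constitutive subunit whose place it takes, as the log2 ratio within an array minus the mean of that ratio over the 6 arrays. The ratio of Psmb8 over Psmb5 was 0.50, 0.02 and 0.18 at day 1 and -0.27, -0.33 and -0.10 at day 3. It was lower on all 3 day 3 arrays than on any day 1 array, with a difference of -0.47 between the mean of day 3, -0.23 ± 0.12, and that of day 1, 0.23 ± 0.24 (SD, n = 3). The two-sided exact permutation test gave p = 0.1, the smallest that 3 against 3 arrays allow, and 0.3 after adjustment over the 3 pairs. For Psmb9 over Psmb6 the difference was -0.66 with overlapping days (exact permutation p = 0.3), and day 1 ran from -0.62 in rat 3 to 1.10 in rat 1. For Psmb10 over Psmb7 it was 0.23, also with overlap (exact permutation p = 0.2). Both had an adjusted value of 0.3 in this exact test. The brighter Psmb10 probe was used here. With the mean of both Psmb10 probes, the difference for Psmb10 over Psmb7 was 0.13 (exact permutation p = 0.4). The 3 pairs therefore did not share a direction, and no pair could pass the threshold in this design.

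**Figure D3:**
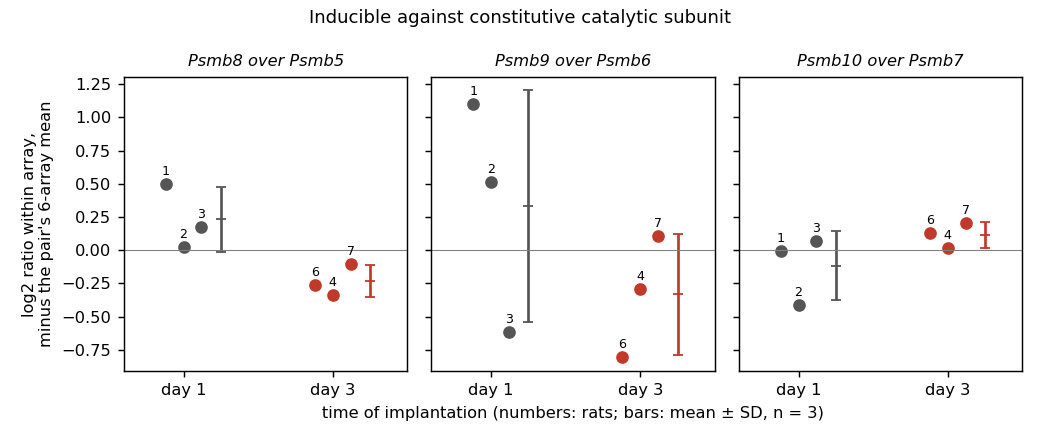
Log2 ratio of the inducible over the constitutive catalytic subunit within each array, minus the pair's mean over 6 arrays (vertical axis), for day 1 and day 3 (horizontal axis). Points are arrays with the rat's number, and bars give the mean ± SD (n = 3); the days separate for Psmb8 over Psmb5 and overlap for the other pairs.

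The array of day 1 rat 2 was low for many proteasome genes. Of the 41 genes, 24 had their lowest value in day 1 rat 2 (58.5%), against 28.1% of all tested probes. That array held the highest value for 9.76% of the genes and for 34.4% of all tested probes. Day 1 rat 3 held the highest value for 24.4% of the genes and for 10.7% of all tested probes. The constitutive core genes lay on average 0.27 below their own 6-array mean in day 1 rat 2 and 0.15 above it in day 1 rat 3, and between 0.02 and 0.09 above it on the day 3 arrays. Immunoproteasome genes lay 0.42 below it in day 1 rat 2, 0.26 above it in day 1 rat 1 and 0.14 above it in day 1 rat 3. Psme activators followed with -0.26, 0.15 and 0.10 in the same arrays, and regulatory particle genes with -0.13, -0.04 and 0.05.

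Day 1 rat 3 and day 3 rat 6 also carried high skeletal muscle signal. The summed log2 signal of 6 tested muscle markers was 14.84 and 14.54 on these arrays and 9.54 to 11.13 on the others. Day 1 rat 3 also stood apart from day 1 rats 1 and 2, toward day 3, in fibroblast markers (15.70 against 14.17 and 14.03) and macrophage markers (13.16 against 11.57 and 11.23). The part of any of these signals in the counts below was not tested. Without day 1 rat 3, 8 proteasome genes were called higher and 1 lower, while 43.1% of all tested probes were called. The 8 were Psmg1, Psmb3, Psmb5, Psmb6, Psma4, Psmc4, Psmd3 and Psmd7, with Psmb5 at a change of 0.79 (limma adjusted p = 0.00404) and Psmb3 at 0.73 (limma adjusted p = 0.00714). Without both arrays with high muscle signal, 5 were higher (Psmg1, Psmb3, Psmb5, Psmd3 and Psmd7) and 0 lower, against 34.7% of all probes called, and Psmb5 had a change of 0.72 (limma adjusted p = 0.0145). Leaving out any other single rat gave 0 calls in limma among the proteasome genes in either direction. With array weights, 10 genes were higher and 5 lower (Psma1, Psmb9, Psmd8, Psmd11 and Psme2, the last at -0.30 with a limma adjusted p of 0.029), and 52.8% of all probes were called. In each of these fits the share of proteasome genes called stayed below that of all tested probes.

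**Figure D4:**
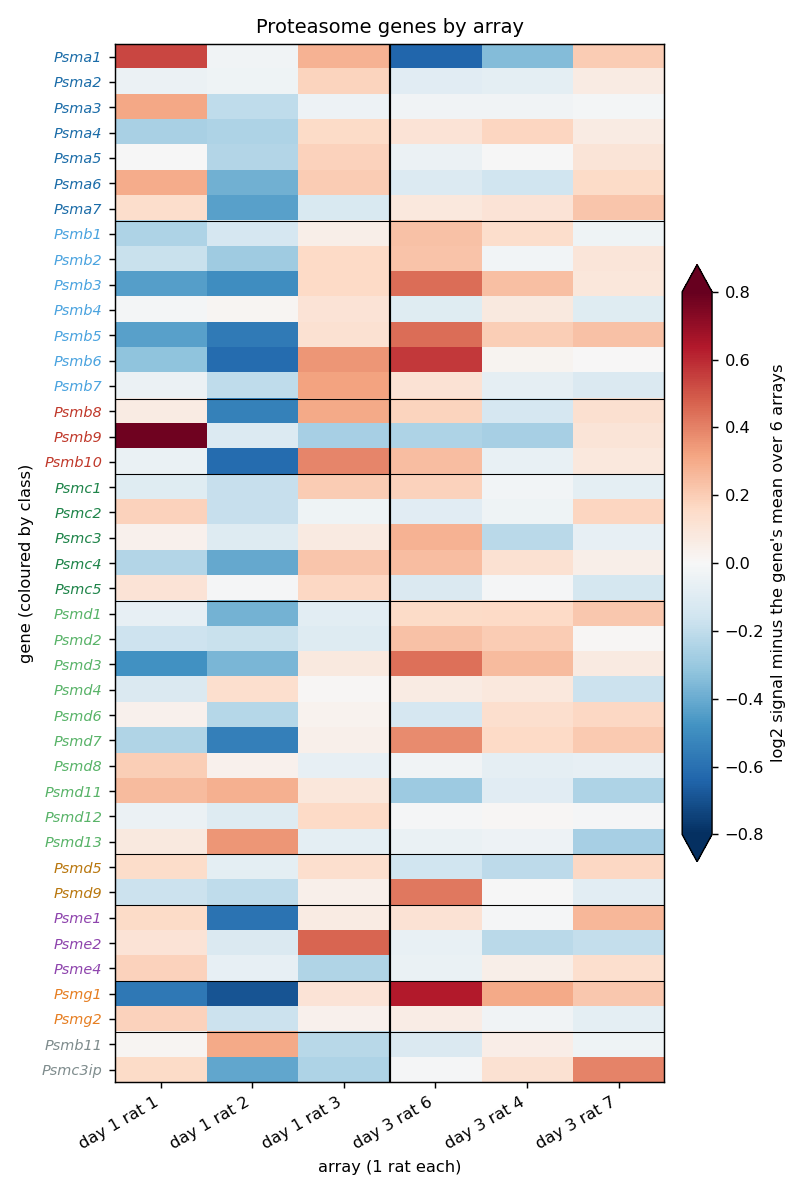
Log2 signal of each tested proteasome gene (rows, coloured by class) on each array (columns), minus the gene's mean over the 6 arrays, on a colour scale from -0.8 (blue) to 0.8 (red). Day 1 rat 2 is the lowest array for 24 of 41 genes, and Psmb5, Psmb3, Psmd3, Psmd7 and Psmg1 are low in day 1 rats 1 and 2 and higher on the other arrays.

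Genes that act around the proteasome were taken from 4 lists with 48 genes, of which 35 were on the array and 33 were tested. In these lists 2 genes rose and 4 fell, 6 of 33, against 31.9% of all tested probes called. The days did not overlap for 49.4% of all tested probes, the base for the separate ranges given next. Among 9 tested maturation and proteasome-bound factors 1 rose, Ubqln2, a shuttle that carries ubiquitinated proteins to the proteasome (median change of the list 0.06). Its log2 signal was 10.13, 9.50 and 10.11 at day 1 and 10.86, 10.81 and 11.18 at day 3, without overlap, a change of 1.04 ± 0.20 (limma adjusted p = 0.00993). Both tested transcription factor genes fell. Nfe2l2 had 12.00, 12.10 and 11.93 at day 1 and 10.87, 11.26 and 11.46 at day 3, a change of -0.81 ± 0.17 (limma adjusted p = 0.0121). Irf1, which mediates interferon responses at immunoproteasome and class I genes, had 12.72, 12.73 and 12.48 at day 1 and 11.97, 12.01 and 12.06 at day 3, a change of -0.63 ± 0.12 (limma adjusted p = 0.00842). Neither overlapped between the days.

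Of 9 tested ubiquitin genes 1 rose and 1 fell (median change -0.14). Ube2l6, a conjugating enzyme induced by interferon, had 9.58, 8.94 and 10.06 at day 1 and 10.85, 10.64 and 10.76 at day 3, a change of 1.23 ± 0.27 (limma adjusted p = 0.0141). Without day 3 rat 6 or rat 7 its adjusted p was 0.0579 and 0.0536. Ube2d3, a ubiquitin-conjugating enzyme, had 8.41, 8.71 and 8.33 at day 1 and 7.72, 7.64 and 7.55 at day 3, a change of -0.85 ± 0.14 (limma adjusted p = 0.00509). Both enzymes had separate ranges on the 2 days. Among 13 tested genes of class I peptide presentation 1 fell and none rose (median change -0.20). Tap1, a subunit of the transporter that carries proteasome products into the endoplasmic reticulum, had 10.61, 10.70 and 10.08 at day 1 and 9.38, 9.96 and 9.64 at day 3, a change of -0.80 ± 0.22 (limma adjusted p = 0.0306). Without day 1 rats 1 and 2 its adjusted p was 0.099 and 0.0806, and without day 3 rats 6 and 7 it was 0.105 and 0.0958. In the RefSeq annotation Tap1 lies between Psmb8 and Psmb9 on chromosome 20, and Tap2 is on the other side of Psmb8. Tap2, named after its values were seen, had a change of -0.78 ± 0.27 (limma adjusted p = 0.066), while Psmb8 and Psmb9 had 0.12 and -0.27. Also named after their values were seen, RT1-A2 and RT1-A3 had changes of -1.12 ± 0.36 and -1.11 ± 0.37 (limma adjusted p = 0.0512 and 0.0588). The class I list genes with changes above 0 were RT1-CE5 (0.25), Pdia3 (0.18), Calr (0.12) and B2m (0.04), none of them called.

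**Figure D5:**
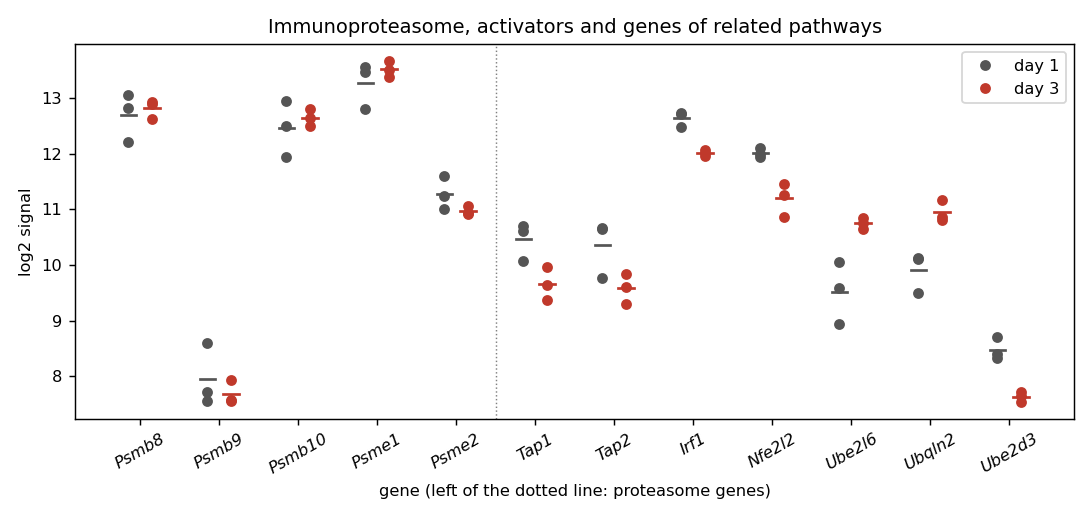
Log2 signal (vertical axis) on each array at day 1 (grey) and day 3 (red), with the mean of each day as a line, for immunoproteasome and activator genes (left of the dotted line) and genes of related pathways (right). The days overlap for the 5 proteasome genes and separate for the 7 others except Tap2. Apart from Tap2, named after its values were seen, those 7 were plotted because they were called among 33 tested pathway genes. Their separation follows from that choice and is no contrast between the groups of genes. Signals of different probes are not comparable in level.

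The promoter motifs were set beside the changes as a description. Of the 8 genes with an antioxidant response element, 7 had a change above 0 and 1 below it, with a median of 0.29 and a range from -0.05 to 0.58. The 29 tested genes with a promoter that lacked the motif had a median of -0.0025, and 14 of them were above 0. The 6 genes with an interferon-stimulated response element had changes from -0.31 (Psme2) to 0.52 (Psmb3), with a median of 0.21, against 0.03 for the 31 without it. The loose NF-kappaB motif gave a like contrast, with a median of 0.21 in 24 genes with it and -0.01 in 13 without it. The 3 tested genes with a gamma-activated site were all above 0 (median 0.50, against 0.03 in the 34 without it), and the CCAAT box went with medians of 0.05 and 0.08. These 5 motifs were searched in the same promoters and no contrast was tested. Psmb8 and Psmb10, whose promoters are printed above, had 0.12 and 0.18, inside the range of the genes with an interferon-stimulated response element. No gene with an antioxidant or interferon-stimulated response element passed the test in limma. Of these 8 and 6 genes, 5 (Psmb3, Psmb5, Psmd1, Psmd3 and Psmd7) had an unadjusted p under 0.05, against 43.5% of all tested probes. Both called genes, Psmg1 and Psmd11, held a match to the loose NF-kappaB motif, which was found in 64.1% of member promoters.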

How the data were processed

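Expression was measured on 6 Illumina 1-colour bead arrays, 1 per rat. The deposited table holds linear signal intensity that the authors had already normalized between arrays: the sorted values of the arrays differ by at most 0.0399%. The submitters' processing notes name limma without a version, and the sources used here do not say whether background had been subtracted. Another deposited table, with 12 columns of per-sample values (6 of signal, 6 of detection p), has headers that match no label and was not used.

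Intensities were background corrected (normexp, offset 50) and put on the log2 scale. Probes above the array median on at least 3 of 6 arrays were tested with lmFit and eBayes (limma 3.58.1, R 4.3.3), with Benjamini-Hochberg adjustment over 11591 probes and a threshold of 0.05. The test is two-sided. Its p-values set the difference between the days against the spread between rats within a day, moderated over all tested probes. Gene names came from the platform annotation, in which 8730 probes have no symbol; the symbols of all 44 proteasome probes were current in RefSeq. Psmb10 has 2 probes, and the brighter represents it. The code was tested on simulated data.

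The genes and lists were chosen with earlier results of these data known. Every proteasome gene is accounted for. From each pathway list, the text names up to 4 called genes with the largest absolute change. Tap2 and the other class I genes that were not called were named after their values were seen. Alternatives varied background correction, offset, filter, array weights, variance prior, normalization, probe choice, threshold and the rats included.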

Additional observations from a re-analysis of the deposited data

How the results depend on the processing

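In the main setting 1 proteasome gene was higher and 1 lower. Under no background correction, a filter over all 6 arrays, cyclic loess or the mean of a gene's probes, both counts were again 1. With an offset of 16, or with an intensity trend and robust fitting, 1 was higher and 0 lower; with no filter 0 were higher and 1 lower. At a threshold of 0.01 there were 0 in either direction. Array weights gave 10 higher and 5 lower, and the median change was then -0.083 for the Psme activators, -0.04 for the immunoproteasome (0.12 in the main setting) and 0.04 for the constitutive core (0.12). Leaving out each rat in turn gave 0 to 8 higher and 0 to 1 lower, with 8 only without day 1 rat 3. Without both arrays with high muscle signal, 5 were higher and 0 lower. The cause of these shifts was not tested.

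Medians over single left-out rats ran from 0.02 to 0.21 for the constitutive core, -0.02 to 0.07 for the regulatory particle, -0.13 to 0.30 for the immunoproteasome and -0.02 to 0.19 for the Psme activators. The differences between paired subunits kept their direction, at -0.57 to -0.33 for Psmb8 and Psmb5, -1.14 to -0.28 for Psmb9 and Psmb6 and 0.08 to 0.32 for Psmb10 and Psmb7. For the pathway genes, alternatives were chosen after seeing the data: array weights gave 5 higher and 15 lower (52.8% of all probes called), a threshold of 0.01 gave 1 and 2 (13.7%), and left-out rats gave 1 to 4 and 3 to 10 (16.5% to 43.1%). No paired analysis was possible because the rats of day 1 and day 3 are different animals and share no number. With 3 arrays a day, changes under about the size of the intervals given could not be told from 0.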
